A study of Mus musculus with 13 samples.

Results

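The comparison of megakaryocyte-erythroid progenitors (MEP) with common myeloid progenitors (CMP) rests on 4 of the 13 mouse bead arrays of the study, chosen by their population labels and genotype. They are 1 array each of CMP and MEP from c-Cbl +/+ controls and 1 each from c-Cbl A/- mice, so that each population has 2 arrays, and genotype enters the comparison as a covariate. All mice were on the C57BL/6 background. In A/- mice 1 allele of c-Cbl, which encodes an E3 ubiquitin ligase for activated receptor tyrosine kinases, is called A and the other is null, and what A stands for is not explained in the labels. Both populations were sorted as lineage-negative, c-Kit+ and Sca1- cells without CD16/32, the Fc gamma receptors. CMP carried CD34 and MEP did not, so CD34 is the surface protein that the 2 gates differ in. Age and sex are not among the labels, and neither is any pooling of animals. With 1 array per population and genotype, the p-values measure only the spread between these arrays, which may be technical, and the number of arrays limits the precision.

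Common myeloid progenitors can give rise to granulocytes, monocytes, red cells and platelets. Cells that take the erythroid and megakaryocytic path lose the granulocyte-monocyte potential, and the transcription factors GATA1 and KLF1 then drive the genes of hemoglobin, heme and the red cell membrane, while PU.1, C/EBP alpha and IRF8 drive the genes of granulocytes and monocytes. GATA1 and PU.1 are known to oppose each other. Red cell precursors make heme with an erythroid form of the first enzyme of the pathway, take up iron through the transferrin receptor and depend on erythropoietin.

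Levels below are log2 signals after background correction and quantile normalization, given for the +/+ array first and the A/- array second, and differences are MEP minus CMP on the same scale with n = 2 arrays a side. On that scale 1 unit is a doubling. A probe counted as detected at a detection p under 0.01, and a gene was called where limma gave it a p under 0.05 after Benjamini-Hochberg adjustment. Genes detected on at least 2 of the 4 arrays were tested. A gene detected in only 1 population thus entered through the side where it was high, which largely set its direction in advance. The counts called in the gene lists below include such genes. The spread in this test came from 10 arrays, those of CMP and MEP together with 6 of granulocyte-macrophage progenitors (GMP), multipotent progenitors (MPP) and short-term stem cells (STHSC).

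Between 30.4% and 32.98% of the 45281 probes were detected on the 4 arrays, against up to 36.43% on the 10. The 2 CMP arrays correlated at r = 0.984 over the tested features, the 2 MEP arrays at 0.961, and arrays of different populations at 0.816 to 0.881. The sort markers were tested as follows. Kit, used in both gates, was at 13.28 and 13.28 in CMP and 12.94 and 13.11 in MEP, a difference of -0.26 (SE 0.12, adjusted p = 0.129). Cd34 was at 10.25 and 10.97 in CMP and 7.19 and 6.45 in MEP, a difference of -3.79 (SE 0.30, adjusted p = 5.80e-05), in the direction of the gates and with no overlap between the populations. Fcgr3 and Fcgr2b, the genes of CD16 and CD32, were at 11.10 and 9.88 in CMP and 8.85 and 4.50 in MEP, and at 10.54 and 9.77 in CMP and 7.55 and 5.29 in MEP, although both gates were negative for these proteins. The Fcgr3 level was 12.48 and 11.29 in GMP, which were sorted for them. Fcgr3 was called lower in MEP by -3.82 (SE 0.68, adjusted p = 0.00267) and Fcgr2b by -3.74 (SE 0.36, adjusted p = 1.27e-04). The probes of Cbl, Flt3 and the lineage antigens Cd4, Cd8a and Cd5 were detected on 0 of 10 arrays, so Cbl checks no genotype label. The probe of Cd8b1, the other chain of CD8, was detected on all 10. It was at 13.42 and 13.37 in CMP and 11.87 and 11.96 in MEP. Xist and the Y-linked Eif2s3y were both detected on all 4 arrays, at 10.30 and 11.22 in CMP and 9.93 and 10.65 in MEP and at 10.25 and 9.56 in CMP and 10.99 and 9.30 in MEP.

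Among the 4 arrays, the MEP array of +/+ mice stood apart in genes of maturing neutrophils. Of 26 such genes with a probe, 22 were detected on it and 6 on the A/- MEP array, against 15 and 6 on the CMP arrays. The sum of their log2 levels was 261.7 and 148.8 in MEP and 186.4 and 152.9 in CMP. Among the defining genes of mature neutrophils, Cd177 and Mmp9 were at 10.56 and 10.77 on the +/+ MEP array and not detected on the other 3, and Mmp8 and Itgam were detected on none of the 4. High levels of these genes were not limited to the +/+ MEP array. Outside the comparison 23 and 21 of the 26 were detected in STHSC, 25 and 22 in MPP and 19 and 8 in GMP. Their sums were 275.7 and 243.1 in STHSC, 291.8 and 257.5 in MPP and 236.0 and 167.4 in GMP. In each population the +/+ array had the higher sum. Because the +/+ MEP array stood apart among the 4, the counts for the myeloid lists are also given without it.

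Across the genome the populations differed widely. Of 10482 features tested, 4354 (41.5%) were called, 2058 (19.6%) higher and 2296 (21.9%) lower in MEP. All 4354 went the same way in both genotypes, but the calls came from these same arrays. Disagreement between the genotypes widens the spread and works against a call, so this is no independent check. Large differences were more often on the lower side, with 911 features called at least 2-fold higher and 1599 at least 2-fold lower, 267 and 786 at least 4-fold, and 26 and 123 at least 16-fold. Of the called features 578 were detected on no MEP array and 184 on no CMP array. When only features detected on all 4 arrays were tested, 1784 were called higher and 1424 lower. The median difference of all tested features was 0.06. In +/+ mice alone 973 features (9.28%) were at least 2-fold higher in MEP and 1552 (14.8%) at least 2-fold lower, and in A/- mice 1097 (10.5%) and 1722 (16.4%), with no test in these comparisons of 1 array with 1 array. The number called was 3465 without the +/+ MEP array, 3000 without the A/- MEP array, 2707 without the +/+ CMP array and 2540 without the A/- CMP array. With scaling to the 75th percentile the split moved to 37.9% higher among 4424 called, from 47.3% here, and the median of all features moved by -0.107, while 0 of the 4354 changed direction. These are bulk samples, in which fewer cells of a type and less RNA per cell cannot be told apart.

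**Figure D1:**
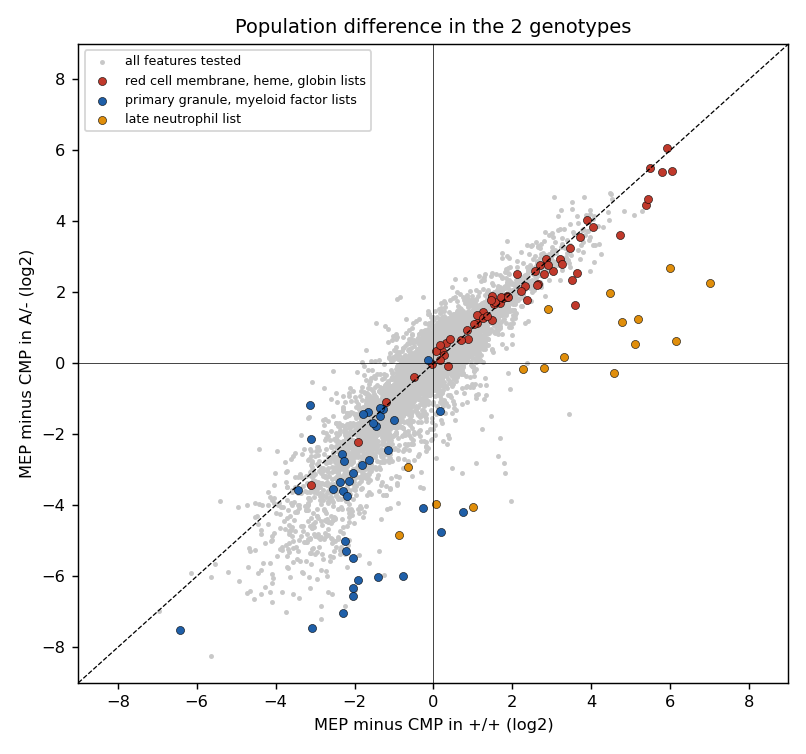
Each point is a tested feature, with its log2 difference MEP minus CMP in +/+ mice on the horizontal axis and in A/- mice on the vertical axis. The dashed line marks equal differences. Genes of red cell membrane, heme and globin lists (red) lie along it, up to 5.93 and 6.07 for Hba-a1. Genes of the late neutrophil list (orange) lie far to its right, and genes of primary granules and myeloid factors (blue) lie mostly below it.

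The 14 genes with the largest positive differences by the naming rule were led by Hba-a1, an alpha globin, at 8.50 and 7.88 in CMP and 14.43 and 13.95 in MEP. Its difference was 6.0 (SE 0.89, adjusted p = 0.00103), or 64-fold. The adult beta globins Hbb-bt and Hbb-bs followed at 5.04 (SE 0.87) and 4.93 (SE 0.74). The beta globin genes are near-identical copies whose probes may share targets, so their values are not separate measurements. For some red cell genes the probe was detected on both MEP arrays and on no CMP array, and only a bound on the fold can be given. It sets the MEP mean against the weakest detected signal on the CMP arrays. Trim10, a RING finger protein of maturing red cells, was at least 32.2-fold higher, Slc4a1, the band 3 anion exchanger of the red cell membrane, at least 24.7-fold, Dmtn, which bundles actin in the red cell skeleton, at least 16.8-fold and the claudin gene Cldn13 at least 9.42-fold (adjusted p = 8.23e-05, 2.25e-04, 3.78e-05 and 3.67e-05). Cldn13 is a member of the membrane list, and the other 3 are among the 14. In each of them both MEP arrays lay above both CMP arrays.

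Other genes among the 14 are less often linked to red cells. Pdia2, a protein disulfide isomerase, was at 5.54 and 6.44 in CMP and 10.83 and 10.74 in MEP and differed by 4.80 (SE 0.45, adjusted p = 1.11e-04). Plpp1, a lipid phosphatase, was at 5.75 and 6.84 in CMP and 10.84 and 11.03 in MEP and differed by 4.64 (SE 0.39, adjusted p = 7.85e-05). Sh3tc2, an adaptor protein known from myelinating Schwann cells, was at 6.56 and 7.08 in CMP and 11.08 and 11.71 in MEP and differed by 4.57 (SE 0.41, adjusted p = 9.56e-05). Each of these was higher on both MEP arrays than on either CMP array. Tlcd4 differed by 4.57 (SE 0.73, adjusted p = 0.0015) and the sialyltransferase gene St3gal6 by 4.35 (SE 0.49, adjusted p = 2.73e-04). Scd1, which makes monounsaturated fatty acids, was at least 12.1-fold higher and Btnl10, a butyrophilin-like gene, at least 9.21-fold (adjusted p = 3.03e-04 and 2.35e-05), with no signal counted as detected in CMP. Retnlg, a resistin-like gene of neutrophils, was at 12.44 and 7.0 in MEP and was at least 11.3-fold higher than in CMP (adjusted p = 0.00454), where it was not detected. It moved with the neutrophil genes of the +/+ MEP array, and their part in this value was not tested.

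The 14 genes with the largest negative differences by the naming rule included Irf8. This gene, the transcription factor of monocytes and dendritic cells, was at 12.69 and 12.39 in CMP and detected on neither MEP array, and it was at least 63.2-fold lower (adjusted p = 1.10e-05). Ly86, which encodes MD-1, the partner of the Toll-like receptor RP105, was at 12.36 and 11.85 and at least 46.9-fold lower (adjusted p = 2.78e-06). F13a1, the catalytic subunit of coagulation factor XIII, was at 13.44 and 12.94 in CMP and 7.81 and 4.69 in MEP and differed by -6.94 (SE 0.57, adjusted p = 7.20e-05). The difference was -5.63 in +/+ and -8.24 in A/- mice. Serpinf1, a secreted serpin also called PEDF, was at 13.03 and 12.82 in CMP and 6.87 and 6.90 in MEP, a difference of -6.03 (SE 0.13, adjusted p = 3.21e-07); the 2 MEP arrays were nearly equal.

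Further genes of this group were lower by bounds or by measured folds. Fgd2, an activator of the GTPase Cdc42, Tespa1, of antigen receptor signalling in thymocytes, Gria3, a glutamate receptor subunit, and Parp8 were detected on no MEP array and were at least 19.2-, 18.9-, 18- and 14.3-fold lower (adjusted p = 9.91e-06, 7.63e-06, 1.27e-05 and 7.37e-06). Emb, the adhesion molecule embigin, differed by -5.59 (SE 0.50, adjusted p = 9.40e-05). Mpeg1, a pore-forming protein of macrophages, differed by -5.53 (SE 0.38, adjusted p = 3.59e-05) and Cacna1d, a calcium channel subunit, by -5.43 (SE 0.45, adjusted p = 7.10e-05). Ccl9, a chemokine of myeloid cells, was at 13.49 and 13.09 in CMP and 9.39 and 6.38 in MEP and differed by -5.41 (SE 0.58, adjusted p = 2.02e-04). Vim, the intermediate filament vimentin, was at 12.31 and 12.26 in CMP and 8.58 and 5.25 in MEP and differed by -5.37 (SE 0.79, adjusted p = 9.76e-04). Unc93b1, which brings Toll-like receptors to endosomes, differed by -5.29 (SE 0.55, adjusted p = 1.86e-04). Of 135 further detected probes of 84 genes named in the text, 130 had the sign of the probe used, and the exceptions were a probe of Zeb2 (0.66) and a pair of probes each of Top2a (0.24 and 0.54) and Xist (0.08 and 0.92). The same sign does not mean the same size. Other probes gave smaller differences for Sptb (1.08 against 4.18), Steap3 (0.83 against 2.31), Sox4 (-1.14 against -3.29) and Gria3 (-2.06 and -3.79 against -5.53). For Slc11a2 they gave larger ones (2.36 and 2.62 against 1.62).

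Promoters of 6 genes are shown because they hold a match to a motif of the factors that these results name. They were picked among the named erythroid and myeloid genes after the motif search. Each runs from 250 bases before to 50 after the start of the gene in RefSeq's annotation of mouse assembly GRCm38.p6, 5′ to 3′ on the gene's strand. Capitals mark the GATA motif AGATAA or its reverse complement TTATCT, the KLF motif CCACACCC, or the PU.1 motif GAGGAAGT. Hbb-bs lies at chr7:103827879-103828178 on the minus strand, Epor at chr9:21963527-21963826 on the minus strand, Alas2 at chrX:150547167-150547466 on the plus strand, Trim10 at chr17:36869324-36869623 on the plus strand, Elane at chr10:79886062-79886361 on the plus strand and Prtn3 at chr10:79879417-79879716 on the plus strand.
Hbb-bs: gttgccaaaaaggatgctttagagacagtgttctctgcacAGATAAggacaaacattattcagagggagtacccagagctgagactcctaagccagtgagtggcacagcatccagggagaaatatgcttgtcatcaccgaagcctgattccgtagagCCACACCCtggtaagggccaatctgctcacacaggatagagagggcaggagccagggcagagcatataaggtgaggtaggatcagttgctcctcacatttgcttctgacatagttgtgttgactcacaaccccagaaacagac
Epor: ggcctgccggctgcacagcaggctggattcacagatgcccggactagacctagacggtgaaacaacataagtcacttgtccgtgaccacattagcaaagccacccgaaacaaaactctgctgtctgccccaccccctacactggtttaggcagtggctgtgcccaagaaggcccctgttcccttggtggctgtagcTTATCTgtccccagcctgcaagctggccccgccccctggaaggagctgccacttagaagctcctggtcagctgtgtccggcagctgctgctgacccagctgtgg
Alas2: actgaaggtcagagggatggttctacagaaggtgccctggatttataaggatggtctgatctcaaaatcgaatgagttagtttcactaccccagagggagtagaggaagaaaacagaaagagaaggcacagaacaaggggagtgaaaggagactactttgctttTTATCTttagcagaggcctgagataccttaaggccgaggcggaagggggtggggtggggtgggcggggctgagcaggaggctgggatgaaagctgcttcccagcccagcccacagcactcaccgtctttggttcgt
Trim10: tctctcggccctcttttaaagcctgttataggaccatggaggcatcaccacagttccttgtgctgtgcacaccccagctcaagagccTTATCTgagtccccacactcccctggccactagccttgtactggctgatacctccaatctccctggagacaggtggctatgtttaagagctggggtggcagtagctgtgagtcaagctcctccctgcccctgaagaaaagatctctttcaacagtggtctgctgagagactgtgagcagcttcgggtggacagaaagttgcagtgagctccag
Elane: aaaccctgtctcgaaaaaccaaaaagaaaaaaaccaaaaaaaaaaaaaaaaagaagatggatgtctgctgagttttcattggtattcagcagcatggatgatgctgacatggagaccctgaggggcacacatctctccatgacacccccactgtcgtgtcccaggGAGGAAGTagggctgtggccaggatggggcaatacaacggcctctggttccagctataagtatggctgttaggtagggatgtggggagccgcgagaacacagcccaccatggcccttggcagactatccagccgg
Prtn3: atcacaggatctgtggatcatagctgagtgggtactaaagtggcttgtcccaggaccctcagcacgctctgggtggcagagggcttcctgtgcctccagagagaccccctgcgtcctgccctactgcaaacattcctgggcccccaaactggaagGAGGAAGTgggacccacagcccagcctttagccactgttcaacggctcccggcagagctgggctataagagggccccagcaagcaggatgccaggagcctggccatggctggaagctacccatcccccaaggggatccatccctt

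In Hbb-bs the GATA motif began 210 bases and the KLF motif 93 bases before the gene's start. The reverse complement of the GATA motif began 54 bases before the start of Epor, 86 before that of Alas2 and 163 before that of Trim10. The PU.1 motif began 85 bases before the start of Elane and 95 before that of Prtn3. On either strand, AGATAA was found in 11.2% of all 32851 promoters of this length. The shares of gene sets count genes with a match in any of their promoters, so their unit is another. They were 7.9% of 7016 tested genes, 20% of 185 genes called at least 4-fold higher in MEP and 9.35% of 535 called at least 4-fold lower. Over all called genes the shares for AGATAA were nearly equal, 9.34% of 1434 higher and 8.51% of 1586 lower. GAGGAAGT was found in 3.2% of all promoters and 3.73% of genes tested. It was found in 2.7% and 8.6% of genes called at least 4-fold higher and lower, and in 3.42% and 5.36% of all called higher and lower. In the same order the shares for CCACACCC were 3.56%, 4.59%, 3.78%, 6.17%, 4.39% and 5.23%, and those for the C/EBP motif TTGCGCAA were 0.183%, 0.299%, 0%, 0.187%, 0.279% and 0.315%. No pair of these motifs overlapped by its letters in the promoters shown. A match describes the letters only and shows no binding.

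Among transcription factors of the erythroid and megakaryocytic lineages, 12 of 29 tested genes were called higher in MEP and 6 lower, where 19.6% and 21.9% of all tested features were, with a median difference of 0.14. Gata1 was at 7.79 and 8.31 in CMP and 10.29 and 10.32 in MEP, a difference of 2.26 (SE 0.45, adjusted p = 0.00429). Gata2, the GATA factor of earlier progenitors, went the other way, at 12.28 and 12.41 in CMP and 11.27 and 10.62 in MEP, with -1.40 (SE 0.30, adjusted p = 0.00666). Klf1, the Krüppel-like factor of red cells, was at 11.33 and 12.05 in CMP and 13.63 and 14.20 in MEP and differed by 2.22 (SE 0.49, adjusted p = 0.00761). Gfi1b, a repressor needed for red cells and platelets, was at 10.83 and 10.99 in CMP and 13.09 and 12.99 in MEP and differed by 2.13 (SE 0.46, adjusted p = 0.00682). In these 4 genes the arrays of the populations did not overlap. Tal1, a partner of GATA1, differed by 1.44 (SE 0.34, adjusted p = 0.00999), E2f2 by 1.63 (SE 0.21, adjusted p = 4.55e-04) and E2f4, a cell cycle factor of red cell precursors, by 1.45 (SE 0.16, adjusted p = 2.27e-04). Klf3 (1.47), Mafk (1.03), Nfe2l2 (0.99), Zbtb7a (0.86), Foxo3 (0.74) and Bcl11a (0.70), the last a repressor of fetal globin genes, were also called higher. Gfi1b was not called without the A/- CMP array (1.93, adjusted p = 0.0587) and Tal1 without either CMP array (1.46 and 1.42, adjusted p = 0.0555 and 0.0635). Klf3, Mafk, Nfe2l2, Foxo3 and Bcl11a each lost the call when some arrays were left out. With all arrays kept, scaling to the 75th percentile also lost the calls of Klf3, Mafk, Nfe2l2 and Foxo3 (adjusted p = 0.0662, 0.176, 0.1 and 0.27). Cyclic loess, another normalization, lost those of Mafk and Foxo3 (adjusted p = 0.056 and 0.116). Klf1 was not called with the 12 arrays that include LTHSC, the long-term stem cells (2.22, adjusted p = 0.1).

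In the same list of factors 6 of 29 were called lower in MEP, a share near the 21.9% of all tested features. Fli1, an ETS factor of megakaryocytes, was at 8.37 and 8.43 in CMP and 6.72 and 5.08 in MEP and differed by -2.50 (SE 0.42, adjusted p = 0.00182). Etv6 was at 8.70 and 9.07 in CMP and 6.97 and 7.30 in MEP, a difference of -1.75 (SE 0.17, adjusted p = 1.22e-04). Runx1, needed for blood stem cells and platelets, differed by -1.25 (SE 0.21, adjusted p = 0.00192), Lyl1 by -1.07 (SE 0.14, adjusted p = 5.91e-04) and Nfe2 by -0.79 (SE 0.11, adjusted p = 6.67e-04). Lmo2, a bridge in the GATA1 and TAL1 complex, was at 14.40 and 14.28 in CMP and 14.43 and 14.28 in MEP and Ldb1, its binding partner, at 13.85 and 14.02 in CMP and 14.01 and 14.29 in MEP, and neither was called. Myb, at 9.29 and 9.13 in CMP and 8.77 and 8.89 in MEP, was not called either. It was called lower with scaling to the 75th percentile (-0.63, adjusted p = 0.0248) and with cyclic loess (-0.56, adjusted p = 0.0233). Without the +/+ MEP array or the +/+ CMP array 7 genes of this list were called higher, and without the A/- CMP array 6, with 6 called lower in each case.

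Genes of heme synthesis and iron handling were called higher in 20 of 28 tested and lower in 2, with a median of 1.35. The first enzyme of the pathway has an erythroid form, Alas2, and a general form, Alas1. Alas2 was not detected in CMP and was at 8.33 and 7.53 in MEP, at least 3.27-fold higher (adjusted p = 0.00386), whereas Alas1 was at 14.63 and 14.09 in CMP and 12.72 and 11.87 in MEP and differed by -2.06 (SE 0.16, adjusted p = 5.92e-05). The next steps were called higher throughout. Alad differed by 1.35 (SE 0.21, adjusted p = 0.00145), Uros by 2.59 (SE 0.17, adjusted p = 3.27e-05), Urod by 1.36 (SE 0.14, adjusted p = 1.89e-04), Cpox by 2.82 (SE 0.31, adjusted p = 2.58e-04), Ppox by 1.64 (SE 0.17, adjusted p = 1.92e-04) and Fech, which inserts the iron, by 2.14 (SE 0.21, adjusted p = 1.41e-04). Uros was at 9.02 and 9.03 in CMP and 11.60 and 11.63 in MEP and Cpox at 5.98 and 6.87 in CMP and 9.02 and 9.47 in MEP, with no overlap. The mitochondrial carriers Slc25a38 and Abcb6, for glycine and porphyrin, differed by 1.79 and 2.44.

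Genes of iron uptake moved in the same direction. Tfrc, the transferrin receptor, was at 11.69 and 12.04 in CMP and 13.58 and 13.91 in MEP and differed by 1.88 (SE 0.15, adjusted p = 5.85e-05). Steap3, the iron reductase of endosomes, differed by 2.31 (SE 0.24, adjusted p = 1.80e-04), Slc11a2, the endosomal iron transporter, by 1.62 (SE 0.25, adjusted p = 0.00124) and Tfr2, a sensor of transferrin, by 1.70 (SE 0.32, adjusted p = 0.00357). Slc40a1, the iron exporter ferroportin, was at 10.37 and 10.35 in CMP and 13.28 and 13.12 in MEP, a difference of 2.83 (SE 0.23, adjusted p = 6.54e-05). Blvrb, a biliverdin reductase, was at 12.45 and 12.87 in CMP and 15.07 and 15.08 in MEP and differed by 2.42 (SE 0.51, adjusted p = 0.00601). Hmox2, a heme oxygenase, was lower by -1.14 (SE 0.13, adjusted p = 3.25e-04). Slc25a37, a mitochondrial iron importer also called mitoferrin, was at 9.51 and 9.55 in CMP and 9.71 and 9.88 in MEP and not called. With each of the 4 arrays left out in turn, 19 genes of this list were called higher and 2 lower.

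Of the globins and carbonic anhydrases 6 of 7 tested were called higher and 0 lower (median 2.67). Hbb-bs was at 9.12 and 9.14 in CMP and 14.50 and 13.62 in MEP and Hbb-bt at 8.66 and 8.98 in CMP and 14.11 and 13.61 in MEP. Car2, a carbonic anhydrase, was at 11.56 and 11.89 in CMP and 14.36 and 14.43 in MEP and differed by 2.67 (SE 0.45, adjusted p = 0.00194), and Car1 was at 14.23 and 14.25 in CMP and 15.60 and 15.58 in MEP and differed by 1.35 (SE 0.46, adjusted p = 0.045). The embryonic globins Hbb-y and Hbb-bh1 were detected on 0 of 10 arrays. In the red cell membrane and blood group list 23 of 26 were called higher and 2 lower, with a median of 2.49, or 2.16 with undetected genes at their bound. Of the 26, 5 were detected in MEP only and entered the test through that side. The receptor of erythropoietin, Epor, was at 8.55 and 8.72 in CMP and 11.40 and 11.66 in MEP and differed by 2.89 (SE 0.46, adjusted p = 0.00152). The skeleton genes Sptb, Add2 and Ank1 differed by 4.18 (SE 0.61, adjusted p = 0.001), 3.64 (SE 0.49, adjusted p = 6.22e-04) and 3.07 (SE 0.71, adjusted p = 0.00945). Rhag, an ammonia channel of the Rh complex, was at 7.46 and 7.54 in CMP and 11.50 and 11.37 in MEP and differed by 3.93 (SE 0.59, adjusted p = 0.00106). Rhd was detected in MEP only and was at least 3.88-fold higher (adjusted p = 6.27e-04). Kel (2.73), Ermap (3.03), Slc14a1 (1.88), Icam4 (1.80) and Xk (1.69), which carry human blood group antigens, and Aqp1, a water channel (1.87), were called higher. The 2 genes called lower were Slc2a1, the GLUT1 glucose transporter, at 9.86 and 10.07 in CMP and 6.75 and 6.64 in MEP, with -3.27 (SE 0.22, adjusted p = 3.17e-05), and Cd47, which marks cells as self (-0.44, SE 0.13, adjusted p = 0.023). Without the A/- CMP array 17 of the list were called higher and 1 lower. The calls of Car1, Icam4 and Cd47 were lost without any 1 of the 4 arrays (adjusted p 0.0645 to 0.186), those of Ank1 without either CMP array (0.0507 and 0.059), Aqp1 and Slc14a1 without the A/- CMP array (0.0609 and 0.055) and Ermap without the +/+ CMP array (0.0559).

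**Figure D2:**
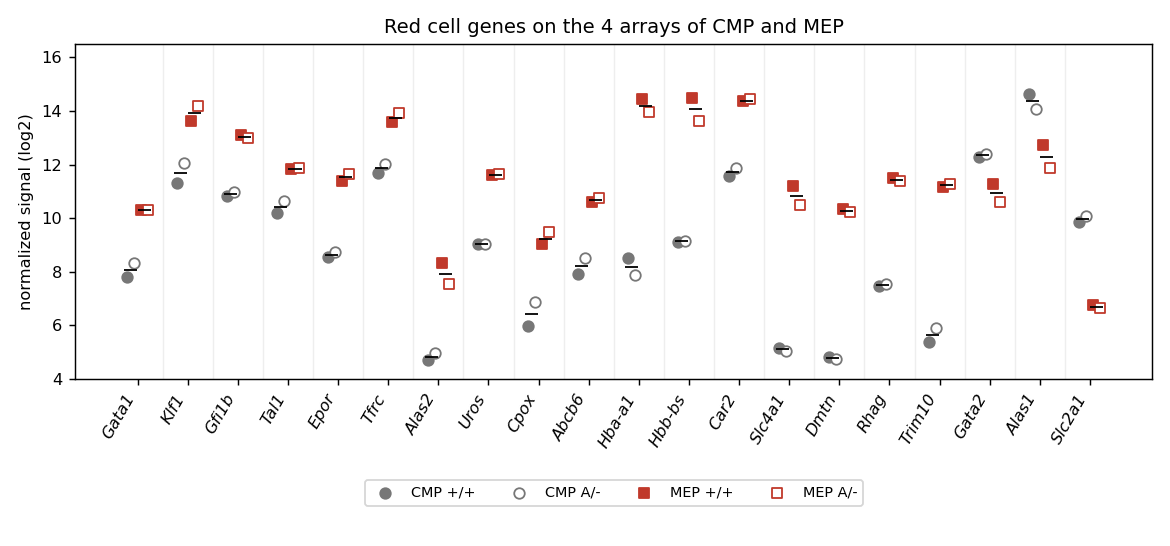
Normalized log2 signals of 20 red cell genes on the 4 arrays of CMP (grey circles) and MEP (red squares), filled for +/+ and open for A/-, with a bar at each population's mean. The first 17 genes lie higher in MEP on both arrays, such as Hba-a1 at 14.43 and 13.95, and the last 3 (Gata2, Alas1 and Slc2a1) lie lower.

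Of 20 tested genes of megakaryocytes and platelets, 3 were called higher and 6 lower, shares near the 19.6% and 21.9% of all tested features, with a median of -0.74, or -0.40 with undetected genes at their bound. Higher were Gp5, of the von Willebrand factor receptor (9.77 and 9.98 in CMP and 11.34 and 11.24 in MEP, difference 1.41, SE 0.38, adjusted p = 0.0176), P2ry1, a receptor for ADP (1.40, SE 0.29, adjusted p = 0.00504), and Rgs10 (1.05, SE 0.25, adjusted p = 0.011). Lower were Plek, a protein kinase C substrate of platelets (10 and 9.84 in CMP and 8.21 and 6.84 in MEP, difference -2.40, SE 0.44, adjusted p = 0.00289), Tbxas1 (-2.69, SE 0.57, adjusted p = 0.00583), Lat (-1.54, SE 0.45, adjusted p = 0.0257) and F10 (-2.02, SE 0.33, adjusted p = 0.00153). Tbxa2r, a receptor for thromboxane, and Selp, P-selectin, were not detected in MEP and were at least 1.94- and 1.69-fold lower. Itga2b, the CD41 antigen, was at 9.49 and 9.65 in CMP and 8.53 and 7.70 in MEP and Pf4, platelet factor 4, at 10.31 and 10.30 in CMP and 11.36 and 9.74 in MEP, and neither was called. Itga2b was called lower in 5 alternatives, among them the 75th percentile scaling (-1.80, adjusted p = 0.0375) and the fit without the +/+ MEP array (-2.23, adjusted p = 0.00971). Pf4 overlapped between the populations. Vwf was at 7.20 and 7.84 in CMP and 9.19 and 9.11 in MEP, and its difference of 1.62 (SE 0.60, adjusted p = 0.0606) did not pass, although it did in 4 alternatives, such as without the A/- MEP array (2.32, adjusted p = 0.0224). Ppbp, Tubb1 and Itgb3 were detected on none of the 4 arrays. The median depends on the genes kept: over those detected on all 4 arrays it was 0.06. Among the named calls, those of Gp5, Rgs10, Lat and Tbxa2r were lost without 1 or another array (adjusted p 0.052 to 0.169). Without the +/+ MEP array 9 were called lower, and without the A/- MEP or A/- CMP array 4.

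Transcription factors of granulocytes and monocytes were called lower in 16 of 17 tested genes and higher in 0, with a median of -2.32, or -1.81 with undetected genes at their bound. Of the 17, 7 were detected in CMP only and entered the test through that side. Spi1, the gene of PU.1, was at 8.88 and 9.16 in CMP and 6.85 and 6.05 in MEP and differed by -2.57 (SE 0.26, adjusted p = 1.67e-04). Cebpa was at 8.32 and 8.40 in CMP, not detected in MEP and at least 3.5-fold lower (adjusted p = 6.87e-04). Irf5 was at least 4.71-fold lower (adjusted p = 5.85e-05), with the same pattern. Gfi1, a repressor of the granulocyte path, was at 11.33 and 10.75 in CMP and 9.30 and 5.28 in MEP, a difference of -3.75 (SE 0.75, adjusted p = 0.00469). Cebpe, the C/EBP factor of late granulocytes, was at 10.48 and 10.80 in CMP and 9.71 and 4.82 in MEP and differed by -3.38 (SE 1.0, adjusted p = 0.0265). Both had most of their difference in A/- mice, and Cebpe was not called without the A/- MEP array (-1.35, adjusted p = 0.103) or the A/- CMP array (-2.14, 0.214). Irf1 (-2.97, SE 0.42, adjusted p = 7.66e-04), Stat3 (-2.17, SE 0.31, adjusted p = 8.25e-04), Jdp2 (-2.32, SE 0.26, adjusted p = 2.48e-04), Cebpb (-1.42, SE 0.18, adjusted p = 4.19e-04) and Zeb2 (-1.30, SE 0.16, adjusted p = 4.56e-04) were lower in both genotypes. Cebpd was at 10.87 and 10.67 in CMP and 10.74 and 10.76 in MEP and was not called. Without the +/+ MEP array 15 of the list were called lower.

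Genes of the primary granules, made in promyelocytes and already transcribed in myeloid progenitors, were called lower in 17 of 21 tested and higher in 0, with a median of -2.72. Elane, neutrophil elastase, was at 15.18 and 14.62 in CMP and 13.26 and 8.53 in MEP and differed by -4.0 (SE 0.91, adjusted p = 0.00842). Prtn3, proteinase 3, was at 15.41 and 15.15 in CMP and 13.37 and 8.83 in MEP (-4.18, SE 0.92, adjusted p = 0.00722) and Ctsg, cathepsin G, at 15.49 and 15.22 in CMP and 13.22 and 8.18 in MEP (-4.66, SE 1.02, adjusted p = 0.00703). In all 3 genes the CMP arrays lay together at the top, the +/+ MEP array lay between and the A/- MEP array at the bottom. Mpo, myeloperoxidase, was at 15.38 and 15.30 in CMP and 15.12 and 11.23 in MEP. On this probe only the A/- MEP array stood apart. The difference of -2.17 (SE 0.86, adjusted p = 0.0738) did not pass. Other detected Mpo probes differed by -3.2, -5.15 and -4.88. Lyz1 and Lyz2, near-identical lysozyme genes, were at 14.04 and 13.57 in CMP and 14.23 and 8.82 in MEP and at 12 and 11.47 in CMP and 12.74 and 7.29 in MEP, with overlapping populations and no call. Without the +/+ MEP array all 3 were called lower, Mpo by -4.08 (adjusted p = 4.07e-07), Lyz1 by -4.68 (adjusted p = 4.07e-07) and Lyz2 by -4.07 (adjusted p = 3.02e-06). Genes with smaller spread between the genotypes were Ctsc, which activates the granule proteases (11.38 and 11.40 in CMP and 9.06 and 8.85 in MEP, difference -2.43, SE 0.20, adjusted p = 7.44e-05), Srgn, the granule proteoglycan (-1.61, SE 0.14, adjusted p = 8.48e-05), and Rab32 (-3.04, SE 0.25, adjusted p = 7.48e-05). Hk3, a hexokinase of myeloid cells, was at 12.70 and 12.39 in CMP and 9.62 and 4.93 in MEP and differed by -5.27 (SE 0.97, adjusted p = 0.003). Over the +/+ arrays alone the list's median was -2.04 and over the A/- arrays -4.07. Without the +/+ MEP array 20 of 21 were called lower, and without the A/- CMP array 11, when Elane (-3.42, adjusted p = 0.073), Prtn3 (-3.52, 0.0665) and Ctsg (-3.95, 0.0646) lost their calls. The neutrophil genes of the +/+ MEP array moved with these levels, and their part was not tested.

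Genes of the late granules and of calprotectin followed the +/+ MEP array. Of 16 tested, 3 were called higher and 2 lower, shares not above the 19.6% and 21.9% of all tested features. Their median was 2.19. S100a8, a subunit of calprotectin, was at 12.72 and 8.62 in CMP and 15.62 and 10.16 in MEP, Camp, the antimicrobial cathelicidin, at 8.56 and 5.92 in CMP and 13.74 and 7.18 in MEP, and Ngp, a neutrophil granule protein, at 6.98 and 4.86 in CMP and 13.14 and 5.49 in MEP. The highest value in each was that of the +/+ MEP array, the A/- arrays of both populations were low, and none of the 3 was called. Without the A/- MEP array they were, S100a8 at 3.94 (adjusted p = 0.0357), Camp at 4.95 (adjusted p = 0.0389) and Ngp at 5.79 (adjusted p = 0.00696). The 3 called higher were Ltf, lactoferrin (8.0 and 5.11 in CMP and 14.01 and 7.79 in MEP, difference 4.35, SE 1.34, adjusted p = 0.0314), Lcn2, lipocalin 2 (2.98, SE 1.0, adjusted p = 0.0424), and Retnlg. The 2 called lower were the receptor genes Cxcr2 (-1.79, SE 0.47, adjusted p = 0.0162) and Ltb4r1 (-2.85, SE 0.79, adjusted p = 0.0206). The list's median was 3.90 between the +/+ arrays and 0.37 between the A/- arrays. Without the A/- MEP array 12 of 16 were called higher and 1 lower, and without the +/+ MEP array 1 higher and 4 lower. Without the +/+ CMP array 1 was called higher and 3 lower, and without the A/- CMP array 1 higher and 0 lower, so each of the 4 arrays moves the count. Without the +/+ MEP array the difference was 2.72 for Ltf (adjusted p = 0.159) and 0.96 for Lcn2 (0.215), and neither was called without either CMP array (0.0928 to 0.179).

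**Figure D3:**
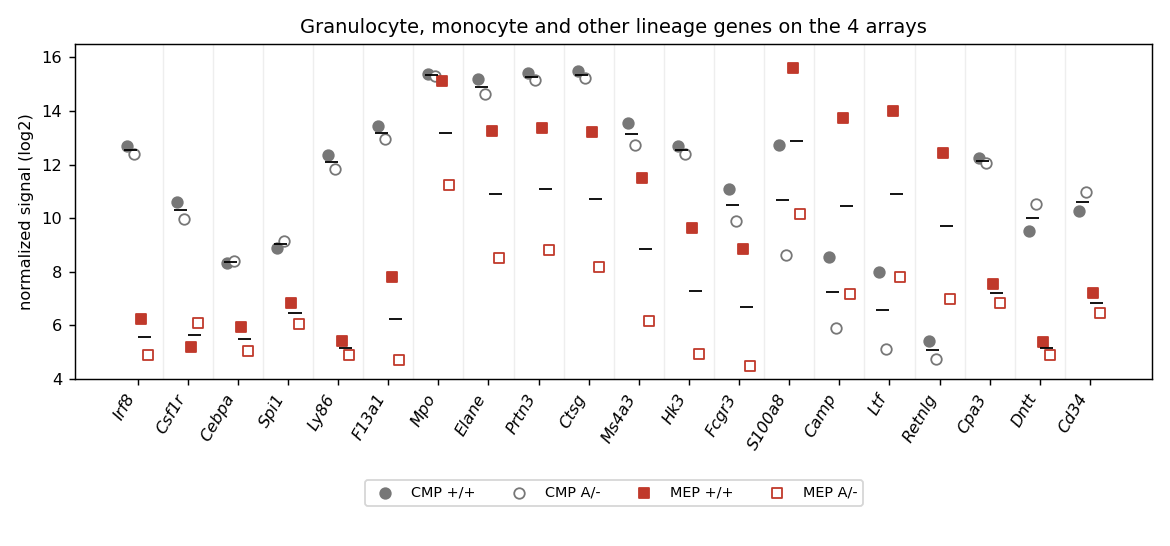
Normalized log2 signals of 20 genes of granulocytes, monocytes, mast cells, lymphoid cells and CD34 on the 4 arrays of CMP (grey circles) and MEP (red squares), filled for +/+ and open for A/-, with a bar at each population's mean. Irf8, Csf1r, Cebpa, Spi1 and Ly86 are low on both MEP arrays. From Mpo to Retnlg the MEP arrays lie far apart, as for Elane at 13.26 and 8.53.

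Markers of monocytes, macrophages and dendritic cells were called lower in 13 of 18 tested and higher in 1, with a median of -2.44, or -1.51 with undetected genes at their bound. Of the 18, 8 were detected in only 1 population. Csf1r, the receptor of macrophage colony-stimulating factor, was at 10.61 and 9.97 in CMP, was not detected in MEP and was at least 13.3-fold lower (adjusted p = 9.55e-05). The chemokine receptor Cx3cr1 was at least 4.6-fold lower (adjusted p = 2.69e-05). Ly6c1, which shares sequence with related Ly6 genes, was at 14.25 and 13.34 in CMP and 12.01 and 6.51 in MEP and differed by -4.53 (SE 1.0, adjusted p = 0.0073), a call lost without the A/- CMP array (adjusted p = 0.0648). Tyrobp and Fcer1g, adaptors of activating receptors, differed by -4.57 (SE 0.77, adjusted p = 0.00198) and -4.35 (SE 0.70, adjusted p = 0.00151). The gene called higher was Zbtb46, a factor of classical dendritic cells that is also known from red cell progenitors, at 6.35 and 6.39 in CMP and 8.97 and 9.28 in MEP (2.75, SE 0.36, adjusted p = 5.79e-04). Genes of mast cells, basophils and eosinophils were called lower in 7 of 10 and higher in 0 (median -2.24, or -1.78 with bounds). Cpa3, a mast cell protease, was at 12.23 and 12.06 in CMP and 7.55 and 6.85 in MEP, a difference of -4.94 (SE 0.21, adjusted p = 9.91e-06) with little spread. Hdc, which makes histamine, differed by -3.96 (SE 0.70, adjusted p = 0.00249), and Mcpt8, a basophil protease, was at least 6.23-fold lower (adjusted p = 7.10e-05). Prg2, of eosinophil granules, was at 11.31 and 11.72 in CMP and 12.03 and 8.62 in MEP and was not called, but without the +/+ MEP array it was, at -2.67 (adjusted p = 7.44e-04). Without that array 15 of the 18 monocyte, macrophage and dendritic cell genes and 8 of these 10 were called lower.

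Lymphoid and stem cell genes were lower in MEP as well. Of 11 tested genes of lymphoid priming 7 were called lower and 0 higher (median -2.29, or -1.59 with bounds). Dntt, the polymerase that adds bases at antigen receptor joints, was at 9.52 and 10.52 in CMP and at least 11.1-fold lower in MEP, where it was not detected (adjusted p = 9.90e-04). Notch1 was at 10.26 and 10.48 in CMP and 6.94 and 4.61 in MEP and differed by -4.60 (SE 0.55, adjusted p = 3.63e-04). Satb1, a chromatin organizer, was at 12.58 and 12.76 in CMP and 8.73 and 7.49 in MEP (-4.56, SE 0.37, adjusted p = 6.85e-05) and Cd27, a receptor of the tumor necrosis factor family, at 13.43 and 13.48 in CMP and 9.46 and 8.04 in MEP (-4.70, SE 0.35, adjusted p = 4.96e-05). None of these 4 overlapped. Of the 4 tested genes of mature B, T and NK cells, 4 were called lower. They were Cd8b1 (-1.48, SE 0.13, adjusted p = 8.50e-05), Nkg7, Prf1 (not called without any 1 of the arrays, adjusted p 0.0583 to 0.209) and Thy1, while Cd3e and Cd2 were detected on none of the 4 arrays.

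In the stem cell and multipotent progenitor list 16 of 27 tested were called lower and 2 higher (median -1.61, or -1.24 with bounds). Of the 27, 6 were detected in only 1 population. Cd93, a marker of early progenitors, was at 12.82 and 12.71 in CMP and 8.56 and 6.42 in MEP and differed by -5.28 (SE 0.55, adjusted p = 1.85e-04). Adgrl4, an adhesion receptor, differed by -4.23 (SE 0.39, adjusted p = 1.10e-04), Hoxa7 by -3.39 (SE 0.23, adjusted p = 3.50e-05) and the homeobox partner Meis1 by -2.54 (SE 0.49, adjusted p = 0.00395). Sox4, at 11.21 and 11.52 in CMP and 8.27 and 7.89 in MEP, differed by -3.29 (SE 0.30, adjusted p = 1.09e-04). The 2 called higher were Mllt3, a chromatin reader also known to act in megakaryocyte and red cell commitment, at 7.52 and 7.0 in CMP and 10.52 and 10.17 in MEP (3.09, SE 0.22, adjusted p = 4.11e-05), and Eng, a co-receptor of the TGF beta family (0.88, SE 0.30, adjusted p = 0.0476), whose call was lost without any 1 of the 4 arrays (adjusted p 0.0829 to 0.192).

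Receptors for cytokines and growth factors were called lower in 18 of 25 tested and higher in 2 (median -1.36, or -1.06 with bounds). Of the 25, 10 were detected in CMP only and entered the test through that side. The 2 higher were Epor and Cnr2, a cannabinoid receptor (9.41 and 9.16 in CMP and 11.17 and 10.93 in MEP, difference 1.77, SE 0.20, adjusted p = 2.48e-04). Il3ra, Il6ra, Il6st and Il10ra, which bind interleukins 3, 6 and 10 or pass on their signal, were detected in CMP and not in MEP, and were at least 7.43-, 6.5-, 4.71- and 4.5-fold lower (adjusted p = 8.37e-05, 1.06e-04, 3.50e-05 and 7.02e-05). Csf3r, the receptor of granulocyte colony-stimulating factor, was at 10.51 and 10.43 in CMP and 8.68 and 6.89 in MEP and differed by -2.68 (SE 0.37, adjusted p = 7.19e-04). Csf2ra differed by -1.46 (SE 0.20, adjusted p = 6.98e-04), Tgfbr2 by -1.36 (SE 0.16, adjusted p = 3.25e-04) and Ifngr1, at 11.48 and 11.18 in CMP and 11.48 and 11.34 in MEP, was not called. Adhesion and chemokine receptors were called lower in 17 of 24 and higher in 2 (median -1.78, or -1.19 with bounds). Of the 24, 7 were detected in only 1 population. Pecam1, the CD31 antigen, was at 10.05 and 9.89 in CMP and 6.76 and 4.86 in MEP and differed by -4.16 (SE 0.48, adjusted p = 3.15e-04). Selplg, the ligand of P-selectin, was at 12.85 and 12.76 in CMP and 10.48 and 10.39 in MEP and differed by -2.37 (SE 0.17, adjusted p = 4.76e-05). Itgal, of the integrin LFA-1, was at least 7.62-fold lower (adjusted p = 6.28e-05), and Cxcr4 differed by -1.68 (SE 0.18, adjusted p = 1.98e-04). The 2 higher were the integrin chains Itga5 (1.11, SE 0.22, adjusted p = 0.00468) and Itgb1 (1.06, SE 0.30, adjusted p = 0.023), which together bind fibronectin. Itga5 was not called without the A/- CMP array (adjusted p = 0.0602), nor Itgb1 without the A/- MEP or either CMP array (0.103 to 0.195).

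Antigen presentation genes were called lower in 16 of 19 and higher in 0 (median -1.11). The peptide editors of MHC class II, H2-DMa and H2-DMb1, were at 12.86 and 12.85 in CMP and 10.30 and 9.78 in MEP and 10.82 and 10.44 in CMP and 7.71 and 7.27 in MEP, with differences of -2.82 (SE 0.17, adjusted p = 2.69e-05) and -3.14 (SE 0.17, adjusted p = 1.96e-05). The immunoproteasome subunit Psmb8 was at 14.14 and 14.20 in CMP and 11.94 and 11.16 in MEP (-2.62, SE 0.22, adjusted p = 7.44e-05). The class I genes H2-K1 and H2-D1, which are near-identical copies, differed by -0.95 (SE 0.17, adjusted p = 0.00249) and -0.72 (SE 0.16, adjusted p = 0.00839), the second not called without the +/+ CMP or A/- MEP array (adjusted p = 0.072 and 0.0633). Interferon response genes were called higher in 4 of 23 and lower in 6, shares near the 19.6% and 21.9% of all tested features. Their median of 0.02 turned negative in 5 alternatives. Oasl1 (2.22, SE 0.25, adjusted p = 2.65e-04) and Irf7 (1.56, SE 0.29, adjusted p = 0.00295) were among those called higher. Gbp3 (-3.13, SE 0.26, adjusted p = 7.32e-05) and Ifitm1 (-1.62, SE 0.23, adjusted p = 9.13e-04) were among those called lower. Other detected probes of Ifitm1 differed by -4.14 and -3.66. Immediate early genes, which respond to signals within minutes, were called lower in 11 of 13 and higher in 0 (median -1.86). Fos was at 12.61 and 11.91 in CMP and 10.15 and 8.90 in MEP and differed by -2.74 (SE 0.24, adjusted p = 8.48e-05), and Zfp36 was at 11.40 and 11.16 in CMP and 9.45 and 7.71 in MEP and differed by -2.70 (SE 0.38, adjusted p = 7.93e-04). Of 14 tested genes of the Cbl family and of STAT5 or ERK feedback 8 were called lower and 0 higher (median -0.81, or -0.69 with bounds). Dusp6, a phosphatase that ERK signalling induces, differed by -1.85 (SE 0.38, adjusted p = 0.00512), Cish, a STAT5 target, by -1.13 (SE 0.27, adjusted p = 0.01), a call lost without either A/- array (adjusted p = 0.0719 and 0.0877), and Cblb, a relative of Cbl, was at 7.70 and 7.98 in CMP and 7.57 and 7.94 in MEP and was not called. Without the A/- MEP or +/+ CMP array 5 of this list were called lower, and without the A/- CMP array 4.

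Of 43 tested genes of the cell cycle and DNA replication 19 were called higher and 5 lower, with a median of 0.27. Ccne1, cyclin E1, was at 8.19 and 8.51 in CMP and 11.06 and 11.11 in MEP and differed by 2.74 (SE 0.19, adjusted p = 3.67e-05), Ccne2 by 1.32 (SE 0.24, adjusted p = 0.00281) and Rrm2, of the enzyme that makes deoxynucleotides, by 1.29 (SE 0.16, adjusted p = 3.82e-04). The D cyclins split, with Ccnd1 (-1.89, SE 0.27, adjusted p = 8.17e-04) and Ccnd2 (-1.27, SE 0.22, adjusted p = 0.00207) lower and Ccnd3 (0.47, SE 0.12, adjusted p = 0.013) higher. The call of Ccnd3 was lost without the +/+ MEP or either CMP array (adjusted p 0.0516 to 0.134). Cdkn1a, the inhibitor p21, was at 9.08 and 8.31 in CMP and 5.90 and 6.77 in MEP, a difference of -2.36 (SE 0.44, adjusted p = 0.00316). Top2a, at 12.39 and 12.27 in CMP and 12.17 and 12.29 in MEP, and Mcm5, at 14.42 and 14.43 in CMP and 14.40 and 14.59 in MEP, were not called. With 1 array left out, between 8 and 13 were called higher. Genes of Myc and ribosome biogenesis were called higher in 11 of 26 and lower in 0 (median 0.42), led by Gnl3, nucleostemin (1.24, SE 0.21, adjusted p = 0.00209), with Myc itself at 9.28 and 9.38 in CMP and 8.87 and 9.0 in MEP and not called. With 1 array left out, between 2 and 4 were called higher. The heat shock list had 4 higher and 1 lower of 11 (median 0.28), the 1 lower being Hspa1a (-1.87, SE 0.28, adjusted p = 0.00104), and 0 to 2 higher with 1 array left out.

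In glycolysis 6 of 18 tested genes were called higher and 8 lower (median -0.32), and isoforms of the same enzyme went opposite ways. With 1 array left out 2 or 3 were called higher. Pklr, the pyruvate kinase of liver and red cells, was at 6.14 and 6.82 in CMP and 9.59 and 10.06 in MEP and differed by 3.35 (SE 0.31, adjusted p = 1.18e-04), whereas Pkm, the isoform of most tissues, was at 13.79 and 13.44 in CMP and 10.66 and 7.10 in MEP and differed by -4.73 (SE 0.73, adjusted p = 0.00123). Pfkm (1.34, SE 0.21, adjusted p = 0.00133) was higher and Pfkp (-1.86, SE 0.26, adjusted p = 7.53e-04), another phosphofructokinase, lower. Pgam1, phosphoglycerate mutase, was at 11.40 and 11.02 in CMP and 8.55 and 8.08 in MEP and differed by -2.90 (SE 0.20, adjusted p = 3.78e-05). Genes of cholesterol and lipid synthesis were called higher in 8 of 18 and lower in 0 (median 0.50), among them Idi1 (1.26, SE 0.20, adjusted p = 0.00155), Lss (1.11, SE 0.19, adjusted p = 0.00205) and the fatty acid desaturase gene Fads2 (1.64, SE 0.34, adjusted p = 0.0056); without the A/- CMP array 4 were called higher, and Fads2 was not (adjusted p = 0.0597). In the BCL2 family and apoptosis list 4 of 15 were called higher and 3 lower (median -0.20, or 0 with bounds), near the 19.6% and 21.9% of all tested features. With 1 array left out 1 or 2 were called higher. Bcl2 itself was at 11.27 and 11.30 in CMP and 7.18 and 5.13 in MEP and differed by -5.13 (SE 0.52, adjusted p = 1.73e-04). Bcl2l11, the death protein BIM, was at 8.30 and 8.71 in CMP and 9.95 and 10.46 in MEP and differed by 1.70 (SE 0.22, adjusted p = 4.78e-04). Bcl2l1, which encodes BCL-XL, was detected on no MEP array and was at 6.32 and 6.46 in CMP, near the lowest detected signal. It was called lower without the +/+ MEP array (-1.31, adjusted p = 0.0172). Stroma and endothelium genes were tested in 4 of 20, with Pdgfrb, Pecam1 and Emcn called lower.

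The difference between the populations was then compared between the genotypes. In limma 80 of 10482 features (0.763%) had a MEP minus CMP difference that was not the same in A/- and +/+ mice, and 516 had an unadjusted p under 0.05. In 79 (0.754%) the A/- value was the lower, and in 1 (0.00954%), Cd74, it was the higher. The spread behind this test came from how the genotype difference varied between STHSC, MPP and GMP, and each value itself rests on 4 single arrays. Of the 80 features 60 were also called between the populations, 64 were lower in MEP in both genotypes and 15 went in opposite directions. The count was 37 with the authors' processed values and 39 with an offset of 50.

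The 10 genes with the largest size were Ear6, Cebpe, Pglyrp1, Lyz1, Lyz2, Ifitm6, Ctsg, Retnlg, Trem3 and Hp. Ear6, a ribonuclease of eosinophils, was at 6.56 and 8.77 in CMP and 8.53 and 4.90 in MEP, so that MEP lay 1.97 from CMP in +/+ and -3.88 in A/- mice, a genotype difference of -5.85 (SE 0.65, adjusted p = 0.00246). Cebpe differed by -0.77 in +/+ and by -5.99 in A/- mice, a genotype difference of -5.22 (SE 0.66, adjusted p = 0.00553). Pglyrp1, which binds bacterial cell walls, was at 10.38 and 9.23 in CMP and 11.38 and 5.19 in MEP, with differences of 1.0 and -4.04 and a genotype difference of -5.04 (SE 0.45, adjusted p = 0.0011). In these genes the A/- MEP array was the lowest of the 4. The genotype difference was -4.95 (SE 0.37, adjusted p = 8.59e-04) for Lyz1, -4.92 (SE 0.45, adjusted p = 0.0011) for Lyz2, -4.85 (SE 0.53, adjusted p = 0.0023) for Ifitm6, -4.76 (SE 0.39, adjusted p = 0.0011) for Ctsg, -4.75 (SE 0.61, adjusted p = 0.00573) for Retnlg, -4.71 (SE 0.43, adjusted p = 0.0011) for Trem3, a myeloid receptor, and -4.62 (SE 0.43, adjusted p = 0.0011) for Hp, haptoglobin. Cd74, the invariant chain of MHC class II, was at 9.80 and 5.61 in CMP and 6.71 and 5.09 in MEP, where the +/+ CMP array was the highest.

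By list, 11 of 21 tested primary granule genes, 4 of 16 late neutrophil genes, 5 of 18 monocyte, macrophage and dendritic cell genes and 2 of 17 granulocyte and monocyte factors differed between the genotypes. In the lists of erythroid factors, heme and iron, globins and red cell membrane 0 of 29, 28, 7 and 26 did. With 0.763% of all features called in this test, a count of 0 in lists of this size is near the background. For Gata1 the differences were 2.51 and 2.01 in +/+ and A/- mice, for Klf1 2.29 and 2.15, and for Epor 2.85 and 2.94. A difference that misses the threshold does not show that the genotypes were alike: the SE of the genotype difference was 0.96 for Klf1. The neutrophil genes of the +/+ MEP array moved with these values. Since each group is 1 array, genotype and array cannot be told apart.

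The other populations place these levels, as a description over the 10 arrays. Gata1 was at 8.97 and 9.18 in STHSC, 5.64 and 5.99 in MPP and 6.17 and 8.27 in GMP, and Klf1 was at 11.88 and 11.62, 9.24 and 9.40, and 9.64 and 11.93. MEP had the highest level of both, MPP and the +/+ GMP array the lowest, and CMP, STHSC and the A/- GMP array lay between. Irf8 was at 12.50 and 11.82 in GMP and 11.57 and 11.82 in MPP, so that CMP and GMP overlapped and MEP was the lowest of the 5 populations. Meis1 was at 13.54 and 13.95 in STHSC and lowest in MEP. Dntt was highest in MPP, at 11.68 and 12.44.

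Some genes of mature cells were high in populations outside the comparison too. Hba-a1 was at 13.82 and 14 on the +/+ arrays of STHSC and MPP, near the 14.43 of the +/+ MEP array, but at 11.78 and 11.04 on their A/- arrays, below the 13.95 of the A/- MEP array, and at 7.30 in the +/+ GMP. Ltf was at 14.85 and 15.32 on the +/+ arrays of STHSC and MPP, above the +/+ MEP array. Trim10, in contrast, was detected on 4 of the 10 arrays and highest on both MEP arrays.

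**Figure D4:**
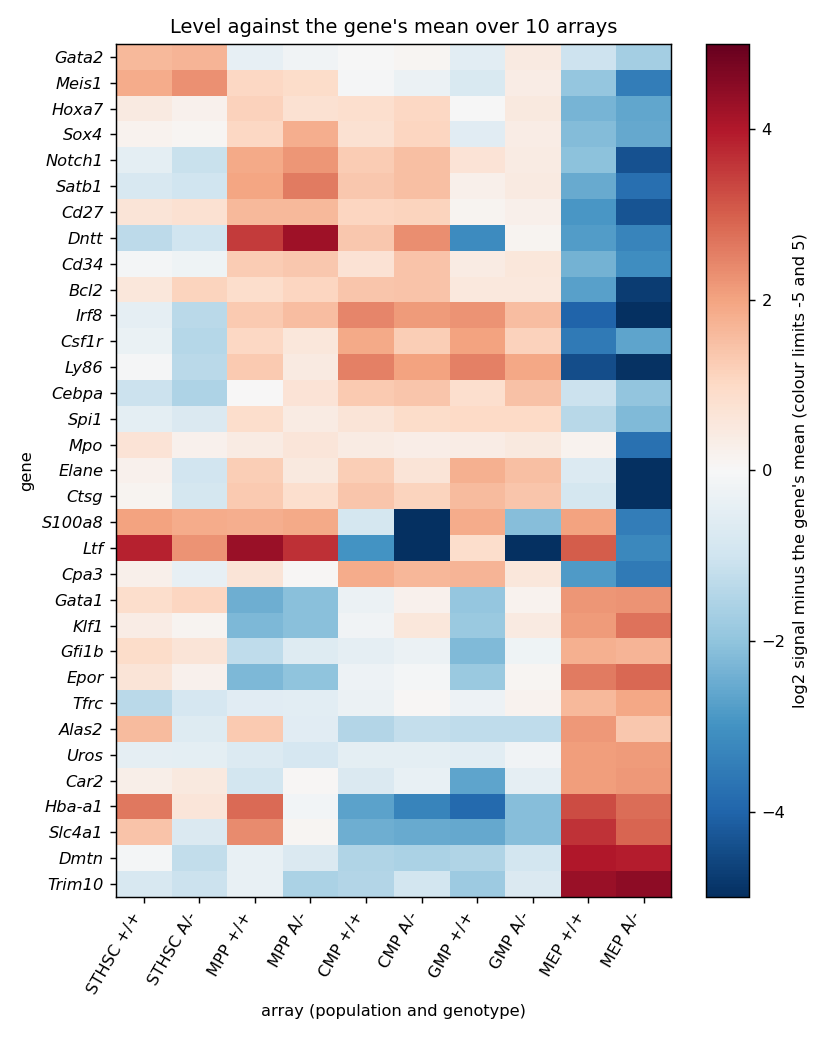
Log2 level of 33 genes on 10 arrays, each against the gene's own mean over the 10, with colours limited to -5 and 5. Columns are arrays by population and genotype. Red cell genes such as Trim10 and Dmtn are darkest red in the 2 MEP columns, genes from Meis1 to Spi1 are blue there, and S100a8 and Ltf are red on the +/+ MEP array and on both arrays of STHSC and MPP.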

How the data were processed

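RNA of sorted mouse progenitors was amplified to biotinylated cRNA and read on Illumina bead arrays, per the labels' protocols. Per the file headers, the deposited unnormalized table pairs each intensity, on a linear scale, with a detection p-value. The authors' processed intensity table, also linear, was put on the log2 scale here and served as an alternative. For the authors' values, software and normalization were not given in the sources used here.

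From the unnormalized intensity of 45281 probes (326 empty lines at the end were left out), limma 3.58.1 in R 4.3.3 used neqc, which estimates background through the detection p-values, with an offset of 16 and quantile normalization over 10 arrays, giving log2 values. The LTHSC arrays have another signal scale and entered only as an alternative with 12 arrays. Probes were named from the platform annotation: 34885 had 1 gene symbol, 18 had several and 10378 were not listed, and the last 2 kinds stayed unnamed. Of the listed probes 34807 matched RefSeq's gene table by Entrez number, with 0 symbols changed. The probe with the highest mean was kept per gene, giving 29453 features, of which 10482 (8523 with a symbol) were detected on at least 2 of the 4 arrays and tested. Normalization to equal distributions makes all differences relative, and the offset shrinks those of dim probes.

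Differences came from limma's lmFit with population and genotype as terms, and the eBayes prior followed the mean-variance trend. The test between genotypes used terms for the genotype effect in CMP, in MEP and in the other 3 populations together. The fits were tested on simulated data. The text names the 14 highest and 14 lowest called, named genes whose differences had 1 sign in +/+ and A/- mice, the 10 largest differences between genotypes, and members of 28 gene lists. Cd177, Mmp9 and other single genes of these lists were chosen for the text after their values were seen, and members and lists were chosen with earlier results of these data known.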

Additional observations from a re-analysis of the deposited data

Results flagged for a closer look

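For 27 genes named in the report the difference MEP minus CMP was not the same in the genotypes by limma's test of that difference, given here as the A/- difference minus the +/+ difference on the log2 scale. Each value rests on 4 single arrays. Among genes of granules and of the granulocyte path it was -5.22 for Cebpe, -5.04 for Pglyrp1, -4.95 for Lyz1, -4.92 for Lyz2, -4.76 for Ctsg, -4.75 for Retnlg, -4.71 for Trem3, -4.62 for Hp, -4.39 for Hk3, -4.28 for Prtn3, -4.17 for Elane, -3.96 for Ltb4r1, -3.82 for Mpo and -3.44 for Gfi1. Among genes of monocytes and of myeloid receptors it was -4.59 for Ly6c1, -3.78 for Tyrobp, -3.30 for Fcer1g, -3.13 for Fcgr3 and -2.61 for F13a1. Among genes of eosinophils, mast cells and basophils it was -5.85 for Ear6, -3.82 for Prg2 and -3.56 for Hdc. Other genes were Ifitm6 at -4.85, Vim at -3.27, Pkm at -3.21 and Nkg7 at -3.07. Cd74 was at 2.57. Ear6, Pglyrp1, Lyz1, Lyz2, Ifitm6 and Prg2 lay higher in MEP than in CMP in +/+ mice and lower in A/- mice.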

How the results depend on the processing

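The count of called features was between 2540 and 3465 when 1 of the 4 arrays was left out, where the lone array of its population is assumed to vary like the others, against 4354 with all. Over the other alternatives it lay between 3208 (features detected on all 4 arrays, 55.6% of the calls higher) and 6114 (each of 15069 probes by itself), with 3527 without the genotype covariate, and 0 of the 4354 changed direction in any setting that tested them. Calls of higher features made up 37.9% with scaling to the 75th percentile and 39.3% with cyclic loess, which moved the median of all features by -0.107 and -0.102, and 36.8% to 40.5% with an array left out. Of 187 called genes named in the text 149 were called under every alternative that tested them (139 of the 215 named were tested among features detected on all 4 arrays) and 38 lost the call under some. Of those not called 18 were called under some, and 0 reversed. The count of features whose difference depended on genotype was 115 with scaling to the 75th percentile, 98 with cyclic loess, 37 with the authors' processed values and 39 with an offset of 50, against 80. List medians changed sign in 12 of 532 values, over 4 of 28 lists: megakaryocyte, interferon, stroma and sex-linked genes. The genotype covariate pairs the CMP and MEP arrays of each genotype. The cause of these changes was not tested. Signal near background limits the fold of 578 called features detected on no MEP array and 184 detected on no CMP array.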
